A study of Sus scrofa with 11 samples.

Results

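The genes described here are the 9 enzymes and enzyme-like proteins of the methionine cycle and the transsulfuration pathway: AHCY, AHCYL1, AHCYL2, MAT1A, MAT2A, MAT2B, MTR, CBS and CTH. They were chosen by gene symbol, and all 9 were found, once each, among the 30376 genes measured by RNA sequencing. The RNA came from full-thickness skin wounds on day 10 after wounding, 7 from a diabetic and 4 from a non-diabetic female Yucatan minipig, with 1 library per wound. The diabetic minipig had received an intravenous infusion of streptozotocin, which destroys insulin-producing beta cells, at 6 months of age. Wounds were made with a 2 cm biopsy punch 60 days later, after 1 week without insulin, and the non-diabetic minipig was wounded in the same way without streptozotocin. The age of the non-diabetic minipig was not given in the sources used here. All wounds of a group came from 1 animal, so that diabetes and the animal cannot be told apart, and every p-value below measures only the spread between wounds.

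The methionine cycle supplies the methyl groups of the cell. Methionine adenosyltransferase makes S-adenosylmethionine (SAM) from methionine and ATP, methyltransferases pass its methyl group to DNA, RNA, proteins or small molecules, and the S-adenosylhomocysteine left over, which inhibits those methyltransferases, is split by AHCY into adenosine and homocysteine. Homocysteine is then either methylated back to methionine by MTR, with folate and cobalamin, or drawn off by CBS and CTH through cystathionine to cysteine, a building block of glutathione. CBS and CTH can also release hydrogen sulfide, a gas signal studied in blood vessel growth and skin repair.

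AHCY was higher and CTH lower in the diabetic wounds, and the other 7 genes were not called. Levels are given as FPKM (reads scaled by gene length and library size, as deposited), which allows genes to be compared per length. Differences are log2 fold changes, diabetic minus non-diabetic, on log2(FPKM + 0.5), a scale that understates changes of low genes. A gene was called when limma gave an adjusted p under 0.05 and its log2 fold change was above 0.5 or below -0.5, out of 13956 genes with at least 0.5 FPKM in at least 4 libraries. Among all genes tested, 1.35% (188) were called higher and 1.66% (231) lower, together 3.00%, and with libraries scaled to a common summed FPKM the split was 152 higher and 294 lower. All 9 genes passed the filter on low values, and 1 was called higher and 1 lower. The same pair was called by voom on reads recovered from the FPKM, under which 2.92% of all genes were called. For 3 of the 9 the log2 fold change was above 0, against 52.3% of all genes tested, and their median was -0.07 against 0.01 over all genes. Both called genes were also the only members whose groups of wounds did not overlap, a pattern found in 2.69% of all genes in the higher and 2.96% in the lower direction.

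**Figure D1:**
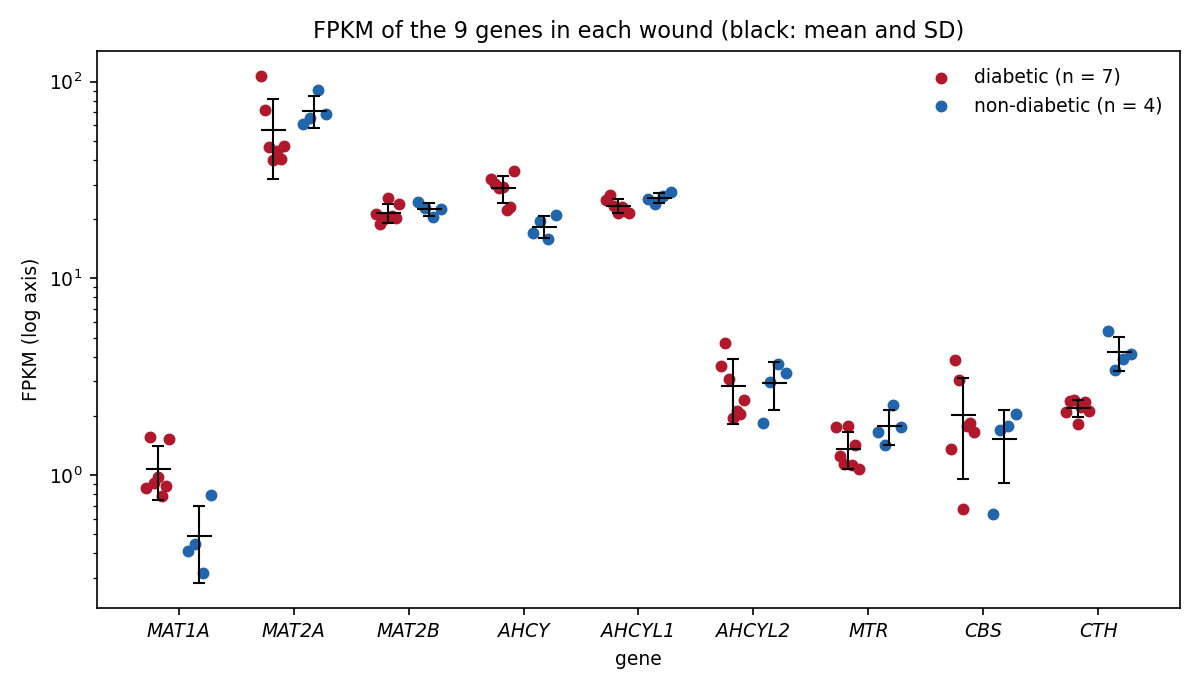
FPKM (log axis) of the 9 genes in each of the 7 diabetic (red) and 4 non-diabetic (blue) wounds, with the mean and SD of each group in black. AHCY in the diabetic wounds (22.3 to 35.1) lies above all non-diabetic wounds (15.9 to 21.1), CTH lies below them, and MAT2A is the most abundant of the 9 in both groups.

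The tissue carried the RNA of a healing wound bed. Summed FPKM of 11 fibroblast and myofibroblast markers ranged from 19938 to 66677 over the 11 wounds. Keratinocyte markers (10 measured) summed to 42.5 in diabetic wound 4 and 257 in non-diabetic wound 1, against 1416 to 6422 in the other 9 wounds. The same 2 wounds were also lowest for 8 neutrophil markers, with 46.2 and 301 against 3808 to 12591. Both stand apart from the rest. Some markers of other cell types differed between the groups, while others of the same lists did not. Of 11 macrophage markers 3 were called higher in diabetic wounds (CD14, MRC1 and ITGAM), and the list summed to 756 to 1723 FPKM against 492 to 915. Of 7 T and B cell markers tested 2 were called higher (CD79A and CD79B), with sums of 53.2 to 115 against 20.3 to 88.1. Of 10 keratinocyte markers 1 was called higher (KRT15). Of 6 adipocyte markers 1 was called lower (LEP), with sums of 278 to 852 against 283 to 483. FABP4, the most abundant of that list, went the other way, at 403 and 210 FPKM. It was the only 1 of the 6 with a log2 fold change above 0 (0.92, limma adjusted p = 0.0607) and was not called. Of 5 sebaceous gland markers tested 1 was called lower (SCD), with sums over the list of 70.7 to 135 against 116 to 649, and AWAT1, a defining enzyme of wax ester synthesis, was listed at 0 in every wound. None of 11 fibroblast, 7 endothelial or 7 tested neutrophil markers was called, although 1, 0 and 0 of them had an unadjusted limma p under 0.05, and voom called none either. Called genes included, 7 macrophage, 3 T and B cell, 1 keratinocyte, 2 adipocyte and 1 sebaceous gland marker had an unadjusted limma p under 0.05. Of the markers called by limma, KRT15 and CD79B were not called by voom. CD79B averaged 1.31 FPKM in the diabetic and 0.266 FPKM in the non-diabetic wounds, and LEP 0.156 and 1.31 FPKM. Both entered the test through the group where they were higher, so their calls are description only. In bulk tissue fewer cells of a type and less RNA per cell cannot be told apart, and the part of these cell types in the results on AHCY and CTH was not tested. Skeletal muscle markers summed to 1827 in diabetic wound 3 and to at most 5.14 elsewhere.

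MAT2A, the catalytic subunit of methionine adenosyltransferase in most tissues outside the liver, was the most abundant of the 9 genes and was not called. MAT2A measured 107, 72.1, 46.5, 40.1, 44.3, 40.4 and 46.9 FPKM in diabetic wounds 1 to 7 and 60.8, 65.3, 90.2 and 68.7 FPKM in non-diabetic wounds 1 to 4. Diabetic wound 1 held the highest level of all 11 wounds, while 5 of the 7 diabetic wounds lay below every non-diabetic wound. The means were 56.7 ± 24.6 (SD, n = 7) and 71.3 ± 13.1 FPKM (n = 4). On the log2 scale the difference was -0.40 (SE 0.26, 95% confidence interval -0.96 to 0.16), with a limma adjusted p of 0.446. The coefficient of variation among diabetic wounds was 43.4%, against 18.3% among non-diabetic wounds, and the interval spans both a clear decrease and a small increase.

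MAT2A lies on the minus strand of chromosome 3 (Sscrofa11.1, chr3:59220203-59225097), in 9 exons. Its model in the NCBI annotation holds the 1188 coding bases and no untranslated region, so that reads past the stop codon do not enter its FPKM. MAT2A mRNA is known to be regulated through repeated hairpins behind its stop codon, which the RNA methyltransferase METTL16 binds. A search of the 2000 bases past the annotated end, on the gene's strand, for the letters TACAGAGAA or TACAGAAAA found 6 matches, and 831 of 19549 genes (4.3%) had at least 1. MAT2A was the only gene of the 19549 with at least 4 matches (0.01%). The 6 stretches are shown because they lie outside what the FPKM of MAT2A counts. Capitals mark the 9 matching letters, with 10 bases on each side, written 5′ to 3′ as DNA from the Sscrofa11.1 genome sequence.
MAT2A site 1: tggcgtaggcTACAGAGAAgccttcaagc
MAT2A site 2: tgtgatatcaTACAGAGAAgtcacagggc
MAT2A site 3: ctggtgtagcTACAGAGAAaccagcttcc
MAT2A site 4: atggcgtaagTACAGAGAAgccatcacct
MAT2A site 5: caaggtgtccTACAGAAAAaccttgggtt
MAT2A site 6: gctggtgtggTACAGAGAAgccagcttgt
The capitals of the first begin 40 bases and those of the last 1359 bases past the annotated end. With the 10 bases on each side these 2 stretches lie at chr3:59220145-59220173 and chr3:59218826-59218854. The capital letters were the same in 5 of the 6, and site 5 is the one with TACAGAAAA. A match of letters is a description of the sequence and says nothing on binding in these wounds. METTL16 itself measured 0.865 ± 0.511 FPKM in diabetic (n = 7) and 0.965 ± 0.384 FPKM in non-diabetic wounds (n = 4), with a log2 fold change of -0.14 (SE 0.26, limma adjusted p = 0.833).

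MAT1A, the catalytic subunit typical of liver, was the least abundant of the 9. Its level was 0.863, 1.57, 0.910, 0.982, 0.784, 0.880 and 1.52 FPKM in diabetic wounds 1 to 7, on 75 to 227 reads, and 0.410, 0.446, 0.319 and 0.792 FPKM in non-diabetic wounds 1 to 4, on 36 to 100 reads. Of the 7 diabetic wounds 6 lay above every non-diabetic wound, and diabetic wound 5 and non-diabetic wound 4 were nearly level. The means were 1.07 ± 0.328 (SD, n = 7) and 0.492 ± 0.207 FPKM (n = 4). This is a log2 fold change of 0.66 (SE 0.18, 95% confidence interval 0.28 to 1.05), with a limma adjusted p of 0.0630, and the gene was not called. With a pseudocount of 0.1 the log2 fold change was 1.00, and it was 1.12 by voom on recovered reads, with limma adjusted p-values of 0.0556 and 0.0820. Library weights alone gave a call (0.60, limma adjusted p = 0.0478), in a fit that called 5.89% of all genes. MAT1A reached 0.5 FPKM in 7 of 7 diabetic wounds and in 1 of 4 non-diabetic wounds, so it entered the test through the diabetic wounds. Of 8 hepatocyte markers ALB, APOB, TTR, TAT and HPD reached at most 0.199 FPKM in any wound, FGB 0.344 FPKM and SERPINA1 1.81 FPKM, whereas APOA1 stood at 74.6 to 119 FPKM. Neither APOA1 nor SERPINA1, the 2 that were tested, was called by limma or voom, and neither had an unadjusted limma p under 0.05.

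As a share of MAT1A and MAT2A together, a measure free of the scaling between libraries, MAT1A made up 0.802% to 3.14% in the diabetic wounds and 0.352% to 1.14% in the non-diabetic wounds. The means were 2.04% ± 0.705 (SD, n = 7) and 0.710% ± 0.324 (n = 4), and the ranges overlapped through diabetic wound 1, where MAT2A was highest. MAT1A lies on the minus strand of chromosome 14 (chr14:82109405-82126487) in 11 exons. The 250 bases before its annotated start (chr14:82126488-82126737) are printed as those of a low gene that neared the threshold, for comparison with the promoters of AHCY and CTH. Promoters were searched on both strands for 5 short motifs, and capitals mark matches.
MAT1A: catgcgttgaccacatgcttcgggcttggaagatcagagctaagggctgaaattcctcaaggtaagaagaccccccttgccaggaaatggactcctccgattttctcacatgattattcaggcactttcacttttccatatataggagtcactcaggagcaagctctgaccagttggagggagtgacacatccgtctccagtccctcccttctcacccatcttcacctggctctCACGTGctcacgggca
It holds 1 E-box, 16 bases before the start, and none of the other motifs. Shares are over 19556 promoters of the same length. The E-box, searched as CACGTG, was present in 6.4% of them. The GC box was searched as GGGCGG and present in 45.9%. The CCAAT box, searched by the letters of its name, was present in 31.9%. The TATA box was searched as TATAAA and present in 9.8%. The composite motif of C/EBP and ATF factors was searched as TGATGNAAN and present in 2.4%. The window held 6 CpG dinucleotides, and 29.9% of all promoters held fewer.

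MAT2B, the regulatory subunit that binds MAT2A, was among the steadiest of the 9. It ranged from 18.8 to 25.5 FPKM (median 20.9) in the diabetic and from 20.4 to 24.5 FPKM (median 22.6) in the non-diabetic wounds. The 2 wounds poor in keratinocyte RNA were the highest of the 11, at 25.5 FPKM in diabetic wound 4 and 24.5 FPKM in non-diabetic wound 1. Its log2 fold change was -0.07 (SE 0.09, 95% confidence interval -0.28 to 0.14, limma adjusted p = 0.761), so that a change of more than 0.28 on this scale lies outside the interval in either direction.

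AHCY, the only hydrolase of S-adenosylhomocysteine in mammals, rose in the diabetic wounds. It measured 32.0, 30.3, 28.8, 29.1, 22.3, 23.2 and 35.1 FPKM in diabetic wounds 1 to 7, on 1326 to 2950 reads, and 17.0, 19.5, 15.9 and 21.1 FPKM in non-diabetic wounds 1 to 4, on 1061 to 1788 reads. Every diabetic wound lay above every non-diabetic wound, with 22.3 FPKM in diabetic wound 5 next to 21.1 FPKM in non-diabetic wound 4. The means were 28.7 ± 4.59 (SD, n = 7) and 18.4 ± 2.35 FPKM (n = 4), a ratio of 1.56. The difference on the log2 scale was 0.62 (SE 0.13, 95% confidence interval 0.33 to 0.92) with a limma adjusted p of 0.0272. A two-sided exact permutation test, which enumerated all 330 ways to split the wounds into 7 and 4, gave its smallest possible p, 0.00303, which became 0.0749 when adjusted over all genes tested.

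The call on AHCY rested on single wounds. Without diabetic wound 3 the limma adjusted p was 0.0554, and without non-diabetic wound 1, 2 or 3 it was 0.0906, 0.0600 or 0.103, while the log2 fold change ranged from 0.56 to 0.65. Without diabetic wound 4 and non-diabetic wound 1 together, the pair poor in keratinocyte RNA, the log2 fold change was 0.58 and the limma adjusted p 0.116. The call was also lost with quantile normalization (0.55, limma adjusted p = 0.0659) and with libraries scaled to a common summed FPKM (0.55, limma adjusted p = 0.0793). The labels give each library a name that opens with L or R, a letter whose meaning is not given in the sources used here. Among L libraries AHCY stood at 28.8 to 32.0 FPKM in 3 diabetic and 17.0 to 19.5 FPKM in 2 non-diabetic wounds, and among R libraries at 22.3 to 35.1 FPKM in 4 and 15.9 to 21.1 FPKM in 2 wounds.

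AHCY lies on the minus strand of chromosome 17 (chr17:37726084-37744378) in 10 exons. The 250 bases before its annotated start (chr17:37744379-37744628) hold 3 GC boxes, at 126, 106 and 86 bases before the start, each on the strand opposite to the gene.
AHCY: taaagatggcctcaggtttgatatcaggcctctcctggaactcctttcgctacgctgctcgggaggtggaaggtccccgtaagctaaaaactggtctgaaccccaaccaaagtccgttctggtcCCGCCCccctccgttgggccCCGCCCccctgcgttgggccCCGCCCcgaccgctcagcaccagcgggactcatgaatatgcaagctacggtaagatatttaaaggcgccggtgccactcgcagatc
None of the other 4 motifs was among its letters. The window held 17 CpG dinucleotides, and 62.3% of all promoters held fewer.

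AHCYL1 and AHCYL2 resemble AHCY in sequence and have no known hydrolase activity of their own. AHCYL1, also called IRBIT, binds the inositol trisphosphate receptor and is known as a regulator of bicarbonate transporters and ribonucleotide reductase. Neither gene was called. AHCYL1 ranged from 21.6 to 26.6 FPKM (median 23.1) in the diabetic and from 24.0 to 27.4 FPKM (median 25.7) in the non-diabetic wounds, with 5 of 7 diabetic wounds below every non-diabetic wound. Its log2 fold change was -0.14 (SE 0.08, 95% confidence interval -0.31 to 0.04, limma adjusted p = 0.398). AHCYL2 measured 3.60, 4.71, 3.10, 1.95, 2.13, 2.05 and 2.40 FPKM in diabetic wounds 1 to 7 and 1.83, 2.96, 3.67 and 3.32 FPKM in non-diabetic wounds 1 to 4. The groups overlapped, with diabetic wound 2 above and non-diabetic wound 1 below all wounds of the other group. The log2 fold change of AHCYL2 was -0.06 (SE 0.23, 95% confidence interval -0.57 to 0.44, limma adjusted p = 0.924). Its sign turned when diabetic wound 4 (0.0059) or non-diabetic wound 3 (0.043) was left out, and without non-diabetic wound 4 the value was 0.0. The longest identical run of exonic bases between AHCYL1 and AHCYL2 was 27 bases, and that between AHCY and AHCYL1 was 21 bases.

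AHCY made up a larger share of this family in the diabetic wounds. It accounted for 47.0% to 59.4% of the summed FPKM of AHCY, AHCYL1 and AHCYL2 in the diabetic wounds and 34.7% to 41.9% in the non-diabetic wounds, with means of 52.1% ± 4.25 (SD, n = 7) and 39.0% ± 3.14 (n = 4). These ranges did not overlap. Because the share is built on the AHCY values above, it adds no separate evidence, and it does not depend on the scaling between libraries. By mean level AHCY stood after MAT2A and before AHCYL1 and MAT2B in the diabetic wounds, and after all of these in the non-diabetic wounds. The ranges of neighbouring genes overlapped here, AHCY with AHCYL1 and AHCYL1 with MAT2B in the diabetic wounds and AHCYL1 with MAT2B and MAT2B with AHCY in the non-diabetic wounds. Within each of the 4 non-diabetic wounds AHCYL1 nevertheless lay above MAT2B and MAT2B above AHCY, and the ranges of AHCYL1 and AHCY did not overlap in this group.

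MTR, the methionine synthase, was low in all wounds and not called. It ranged from 1.08 to 1.77 FPKM (median 1.25) in the diabetic and from 1.42 to 2.28 FPKM (median 1.71) in the non-diabetic wounds, with 4 of 7 diabetic wounds below every non-diabetic wound. Its log2 fold change was -0.29 (SE 0.14, 95% confidence interval -0.61 to 0.02, limma adjusted p = 0.314). BHMT, which remethylates homocysteine with betaine in the liver, was listed at 0 in every wound.

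CTH, the lyase that splits cystathionine into cysteine, fell in the diabetic wounds. It measured 2.10, 2.37, 2.41, 1.81, 2.22, 2.35 and 2.11 FPKM in diabetic wounds 1 to 7, on 102 to 199 reads, and 5.37, 3.41, 3.90 and 4.14 FPKM in non-diabetic wounds 1 to 4, on 204 to 303 reads. All diabetic wounds lay below all non-diabetic wounds, with a gap from 2.41 to 3.41 FPKM. The means were 2.19 ± 0.211 (SD, n = 7) and 4.21 ± 0.835 FPKM (n = 4). This gave a log2 fold change of -0.79 (SE 0.12, 95% confidence interval -1.05 to -0.54), with a limma adjusted p of 0.00409. The exact permutation test gave its smallest possible p, 0.00303, or 0.0749 adjusted over all genes tested, as for AHCY. Diabetic wound 4 was the lowest and non-diabetic wound 1 the highest of all 11, and without both the log2 fold change was -0.64, still called with a limma adjusted p of 0.0188. CTH was also called when any 1 wound was left out, with log2 fold changes of -0.88 to -0.68. Among L libraries it stood at 2.10 to 2.41 FPKM in 3 diabetic and 3.41 to 5.37 FPKM in 2 non-diabetic wounds, and among R libraries at 1.81 to 2.35 FPKM in 4 and 3.90 to 4.14 FPKM in 2 wounds.

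CTH lies on the minus strand of chromosome 6 (chr6:142454922-142486352) in 12 exons, and the only gene overlapping it, LOC106507651 on the other strand, had 0 to 16 reads per library. The 250 bases before the annotated start of CTH (chr6:142486353-142486602) hold a CCAAT box at 111 bases before the start. Another CCAAT box at 74 bases and a GC box at 57 bases both lie on the strand opposite to the gene.
CTH: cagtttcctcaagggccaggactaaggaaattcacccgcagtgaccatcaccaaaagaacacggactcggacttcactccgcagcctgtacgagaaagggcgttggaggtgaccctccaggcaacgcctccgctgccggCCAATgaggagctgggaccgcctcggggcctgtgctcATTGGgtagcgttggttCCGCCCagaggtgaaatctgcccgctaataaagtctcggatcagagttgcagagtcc
None of the other 3 motifs was among its letters, and the window held 15 CpG dinucleotides, with fewer in 57.0% of all promoters. Beside the AHCY promoter printed above, both hold the GC box, which 45.9% of all promoters hold, and CTH alone of the pair holds the CCAAT box.

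**Figure D2:**
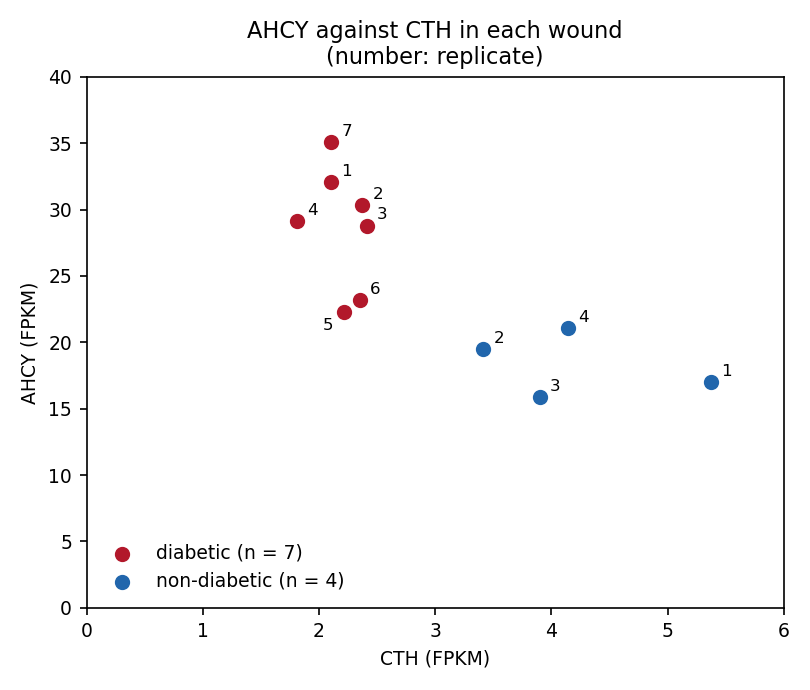
AHCY (vertical axis, FPKM) against CTH (horizontal axis, FPKM) in each of the 7 diabetic (red) and 4 non-diabetic (blue) wounds, with the replicate number beside each point and both axes starting at 0. The diabetic wounds lie to the upper left, with AHCY at 22.3 to 35.1 and CTH at 1.81 to 2.41, and the non-diabetic wounds to the lower right.

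CBS, the enzyme before CTH in the pathway, was not called and varied widely. It measured 1.36, 3.86, 3.04, 0.669, 1.78, 1.85 and 1.66 FPKM in diabetic wounds 1 to 7 and 0.634, 1.69, 1.77 and 2.04 FPKM in non-diabetic wounds 1 to 4. The highest levels, in diabetic wounds 2 and 3, and the lowest, in diabetic wound 4 and non-diabetic wound 1, lay on both sides of the remaining range. Its log2 fold change was 0.27 (SE 0.33, 95% confidence interval -0.46 to 1.00, limma adjusted p = 0.727), and the coefficient of variation of 52.7% among diabetic wounds was the widest of the 9 genes. This value turned on single wounds: the log2 fold change was 0.0094 without non-diabetic wound 1, 0.12 without diabetic wound 2, 0.17 without diabetic wound 3 and 0.44 without diabetic wound 4, none of them called. The 2 lowest wounds were those with the lowest keratinocyte marker sums, and AHCYL2 also had its lowest levels, 1.95 and 1.83 FPKM, in this pair. The part of keratinocyte RNA in these levels was not tested.

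As a share of CBS and CTH together, CBS made up 27.0% to 61.9% in the diabetic wounds and 10.6% to 33.1% in the non-diabetic wounds. The means were 45.2% ± 11.3 (SD, n = 7) and 27.0% ± 10.98 (n = 4), and only diabetic wound 4 lay within the non-diabetic range. The ratio of AHCY to CTH, built on both called genes, ran from 9.86 to 16.7 (median 12.8) in the diabetic and from 3.17 to 5.70 (median 4.58) in the non-diabetic wounds. Because the share holds the CTH values above and the ratio those of both called genes, neither adds separate evidence.

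**Figure D3:**
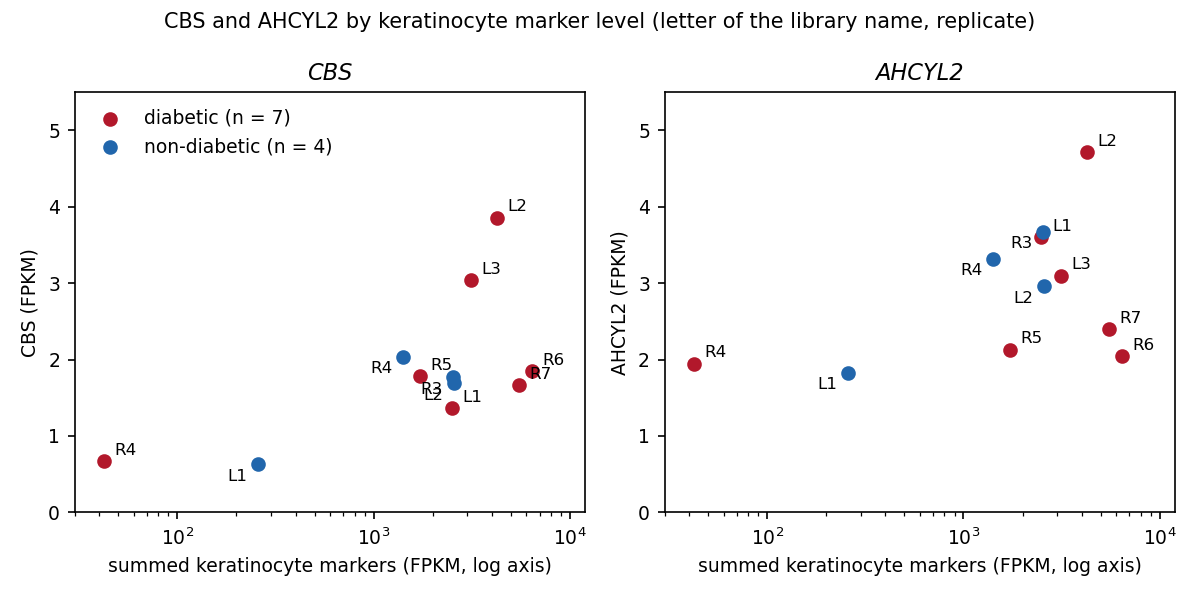
CBS (left) and AHCYL2 (right) in FPKM against the summed FPKM of 10 keratinocyte markers (log axis) in the 7 diabetic (red) and 4 non-diabetic (blue) wounds, labelled with the letter that opens the library name and the replicate number. The wounds with marker sums of 42.5 and 257 hold the lowest CBS levels, 0.669 and 0.634, and the levels spread widely among the other 9.

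Across the 9 genes the levels fell into a high and a low tier that did not overlap within either group. MAT2A, AHCY, AHCYL1 and MAT2B formed the high tier, at 15.9 FPKM or more in every wound. AHCYL2, CTH, CBS, MTR and MAT1A formed the low tier, at 5.37 FPKM or less. MAT2A stood clear of its next neighbour in both groups. Within the low tier every neighbouring pair overlapped. CTH ranked first of this tier in the non-diabetic and behind AHCYL2 in the diabetic wounds.

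The pathways that feed and drain the cycle were covered by 11 lists of 140 genes, 119 of which were tested. Of these 1 was called higher and 1 lower, 1.68% against 3.00% of all genes tested, and 77 had a log2 fold change above 0, with a median of 0.12 against 0.01 over all genes. PHGDH, the first enzyme of serine synthesis, rose from 26.3 ± 5.00 (SD, n = 4) in the non-diabetic to 59.9 ± 17.1 FPKM (n = 7) in the diabetic wounds. Its log2 fold change was 1.14 (SE 0.23, limma adjusted p = 0.0224), and the ranges, 32.9 to 79.2 and 18.9 to 29.3 FPKM, did not overlap. Serine is the partner that CBS joins to homocysteine. Without non-diabetic wound 1, 2, 3 or 4 the limma adjusted p of PHGDH was 0.0576, 0.0567, 0.0556 or 0.0755, and the gene was then not called. ALDH7A1, which oxidises aldehydes of lysine breakdown and betaine aldehyde, fell from 27.2 ± 3.21 (n = 4) to 16.1 ± 0.975 FPKM (n = 7), with a log2 fold change of -0.73 (SE 0.09, limma adjusted p = 0.00103) and ranges of 23.5 to 31.3 and 15.0 to 17.9 FPKM. ALDH7A1 was also called when any 1 wound was left out.

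**Figure D4:**
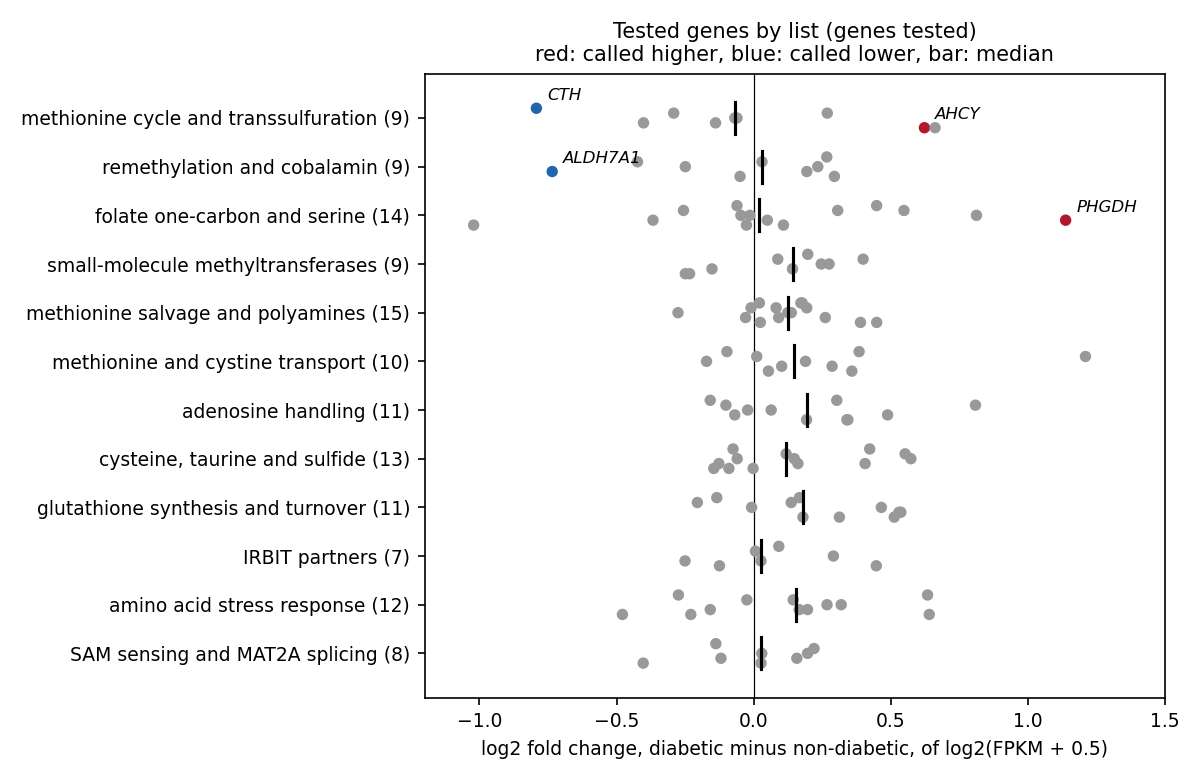
Log2 fold change (diabetic minus non-diabetic, of log2(FPKM + 0.5)) of every tested gene of the methionine cycle and transsulfuration genes and of 11 related lists, with the number of genes tested in brackets and the median of each list as a black bar. Genes called higher are red (AHCY and PHGDH), genes called lower blue (CTH and ALDH7A1), and all others, in grey, were not called.

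Voom on recovered reads called the same pair and no other gene of these lists. In remethylation and cobalamin handling 1 of 9 tested genes was called lower (ALDH7A1), with a median log2 fold change of 0.03, and the most abundant gene, the cobalamin chaperone MMADHC, stood at 35.0 and 30.4 FPKM (0.19, limma adjusted p = 0.330). In folate and serine metabolism 1 of 14 was called higher (PHGDH), with a median of 0.02. In these lists 4 of 9 and 5 of 14 tested genes had an unadjusted limma p under 0.05. Counts at an unadjusted limma p under 0.05, here and for the markers, stand without the share over all genes tested and are description only. Such p-values were common over all genes tested, since a related gene at an unadjusted limma p of 0.0502 had an adjusted p of 0.272. None of 9 small-molecule methyltransferases was called, with 1 at an unadjusted limma p under 0.05 and a median log2 fold change of 0.14. None of 15 genes of methionine salvage and polyamine synthesis was called, with 2 at an unadjusted limma p under 0.05. There SAT1, which acetylates polyamines, stood at 332 and 335 FPKM (log2 fold change -0.03), and MRI1, an enzyme of methionine salvage, at 15.7 ± 1.26 (n = 7) and 11.4 ± 1.36 FPKM (n = 4), with a limma adjusted p of 0.0248 at a log2 fold change of 0.45, short of the fold threshold.

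None of 10 methionine and cystine transporters was called, with 4 at an unadjusted limma p under 0.05. Their log2 fold changes ran from -0.17 to 1.21, with a median of 0.15. SLC3A2, the heavy chain shared by the methionine and the cystine carrier, stood at 55.4 ± 5.56 (n = 7) and 42.3 ± 3.91 FPKM (n = 4), with a log2 fold change of 0.38 (SE 0.10, limma adjusted p = 0.0512). None of 11 genes of adenosine handling was called, with 3 at an unadjusted limma p under 0.05, and AMPD2, an AMP deaminase, stood at 15.2 and 15.9 FPKM. None of 13 genes of cysteine, taurine and sulfide metabolism was called, with 1 at an unadjusted limma p under 0.05, and ETHE1, the sulfur dioxygenase of mitochondria, stood at 35.5 and 32.7 FPKM. Nor was any of 11 glutathione genes, with 2 at an unadjusted limma p under 0.05 and the aminopeptidase ANPEP at 30.001 and 25.8 FPKM. In this list GGT5, a gamma-glutamyltransferase, had ranges that did not overlap, 2.24 to 4.55 and 1.51 to 2.199 FPKM, with a limma adjusted p of 0.101.

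Of 7 tested partners of AHCYL1 none was called and none had an unadjusted limma p under 0.05, and the ribonucleotide reductase subunit RRM1 stood at 24.5 and 22.6 FPKM. Of 12 genes of the amino acid stress response, a programme driven by the factor ATF4, none was called, with 4 at an unadjusted limma p under 0.05 and NUPR1 at 232 and 186 FPKM (0.27, limma adjusted p = 0.594). Of 8 genes of SAM sensing and MAT2A splicing none was called, with 2 at an unadjusted limma p under 0.05 and the RNA-binding protein HNRNPD at 65.8 and 56.4 FPKM (0.22, limma adjusted p = 0.143). The groups did not overlap in 4 of the 119 genes (ALDH7A1, PHGDH, MRI1 and GGT5), 3.36% against 5.65% of all genes tested.

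The genes most like AHCY and CTH over the 11 wounds were found by the root mean square difference of log2(FPKM + 0.5) after centring each gene on its mean. For AHCY these were SSC4D, a scavenger receptor family member, MRPL47, a mitochondrial ribosomal protein, and CTNNBL1, a spliceosome-associated protein, at 0.155, 0.168 and 0.171, against a median of 0.441 over the genes tested. Their log2 fold changes were 0.63, 0.73 and 0.51. SSC4D was low, at 0.984 FPKM in the diabetic and 0.456 FPKM in the non-diabetic wounds, and its likeness depends on the pseudocount. With a pseudocount of 0.1 its log2 fold change was 0.96, and by voom 1.10, against 0.63 and 0.63 for AHCY. For CTH the genes most like it were DROSHA, the nuclease that starts microRNA processing, ALDH7A1 and ACSL3, an acyl-CoA synthetase. They lay at 0.139, 0.143 and 0.161, against a median of 0.486. Their log2 fold changes were -0.81, -0.73 and -0.74. The measure ranks genes by the same differences between groups that AHCY and CTH show, and describes likeness in these 11 wounds only.

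**Figure D5:**
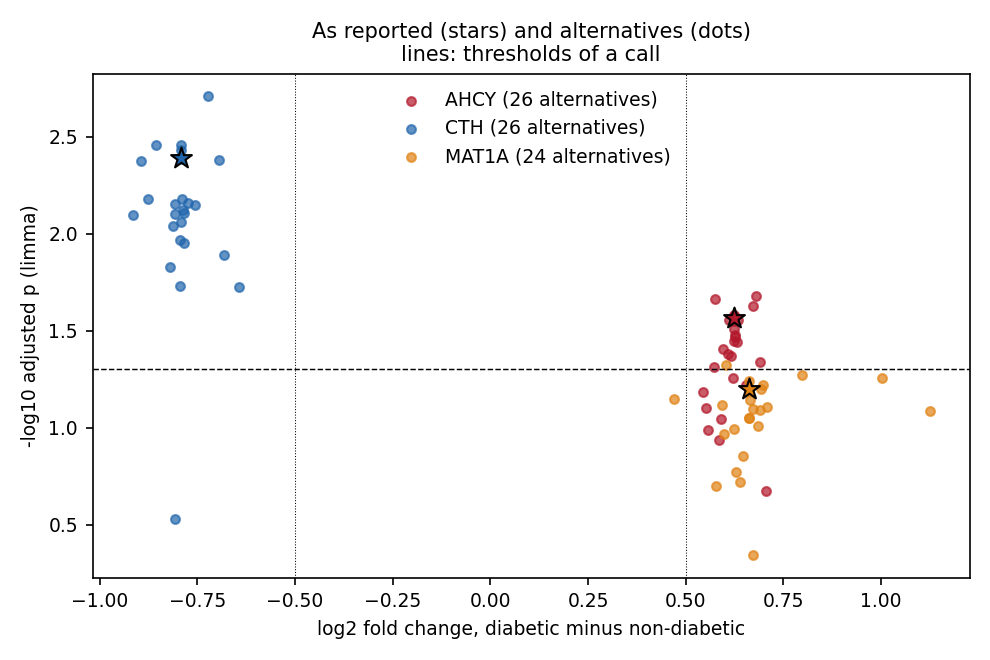
Log2 fold change (diabetic minus non-diabetic) against -log10 of the limma adjusted p for AHCY (red), CTH (blue) and MAT1A (orange) as reported (stars) and under the alternatives of processing (dots, 26 for AHCY and CTH and 24 for MAT1A). Dashed and dotted lines mark the thresholds of a call, which CTH passed in 25 alternatives, AHCY in 18 and MAT1A in 1.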

How the data were processed

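RNA of 7 diabetic and 4 non-diabetic wounds was sequenced from poly-A, directional libraries. Per the labels and methods, the authors used fastp for trimming, HISAT2 2.2.1 for mapping to Sscrofa11.1, StringTie 2.2.3, and featureCounts 2.0.6 for counting, and deposited FPKM, whose formula and strand setting are not given in the sources used here. Columns were matched to wounds by library name. Of 30376 genes, 24 have no symbol and 26 symbols turned into dates were repaired from identifiers, 30335 of which are in the NCBI annotation. Multiplied by gene length, 100.0% of values were whole reads (within 0.05), with 28314785 to 40168372 reads on genes per diabetic and 32961018 to 36872400 per non-diabetic wound.

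Genes with at least 0.5 FPKM in at least 4 libraries were fitted on log2(FPKM + 0.5) with limma 3.58.1 (lmFit, eBayes with trend, R 4.3.3) and Benjamini-Hochberg adjustment, without covariates. A call needed an adjusted p under 0.05 together with a log2 fold change beyond 0.5 in either direction. The test was tried on simulated data with 200 changed genes. These data had the same spread setting for all genes and no wound that stood apart. They do not show how the test behaves on these wounds, and no result above rests on them. Voom on recovered reads called 408 genes (2.92%). Alternatives changed the pseudocount, filter, scaling, spread estimate, weights, block, covariate, wounds and unit.

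The genes and lists were chosen with earlier results of these data known. Named are the 9 genes, each related list's called and most abundant genes, and the 3 genes most like each called member, leaving out genes without a symbol or with a LOC symbol. The most abundant gene of 1 list is not reported here. METTL16, BHMT, MRI1, GGT5 and the called markers fall outside this rule and were named after their values were seen. Sequences came from the Sscrofa11.1 genome (NCBI RefSeq) with Python 3.11.15 and pysam 0.24.0, and figures from matplotlib 3.10.9.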

Additional observations from a re-analysis of the deposited data

Results flagged for a closer look

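AHCYL2 differed between the groups in how wounds with a library name opening in L (diabetic wounds 1 to 3, non-diabetic wounds 1 and 2) compared with those opening in R. The comparison was chosen after seeing the data. For AHCYL2, L minus R was 0.70 among diabetic and -0.49 among non-diabetic wounds on the log2 scale, a difference of 1.19 (limma interaction, adjusted p = 0.0432). All 3 diabetic L wounds (3.10 to 4.71 FPKM) lay above all 4 R wounds (1.95 to 2.40), and both non-diabetic L wounds (1.83 and 2.96) below both R wounds (3.32 and 3.67). For AHCYL1 the difference was 0.295 and did not pass (limma adjusted p = 0.143), with L minus R at 0.18 and -0.12 and the same separation of wounds in opposite directions. Larger differences than that of AHCYL1, also short of the threshold, were found for MAT2A (1.04, with 0.72 and -0.32, limma adjusted p = 0.107) and CBS (1.28, with 0.67 and -0.61, limma adjusted p = 0.172). The pair poor in keratinocyte RNA, diabetic wound 4 (R) and non-diabetic wound 1 (L), held the 2 lowest levels of both AHCYL2 and CBS. The part of this pair in these differences was not tested. Of all 13956 genes tested, 6.46% (901) passed an adjusted p under 0.05 for this interaction. In 18 groups of values, 9 genes in either group of wounds, no wound stood far enough from the rest to pass Dixon's criterion.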

How the results depend on the processing

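CTH was called lower in 25 of 26 alternatives and AHCY called higher in 18 of 26, both in 1 direction throughout (-0.92 to -0.64 and 0.55 to 0.70). The number of the 9 genes called, 2 as reported, was 1 with quantile normalization, 1 with summed FPKM scaling, 1 without both diabetic wound 4 and non-diabetic wound 1, 0 with the replicate number as a block, and 1 to 2 when single wounds were left out. In the related lists, 2 genes as reported, it was 6 with library weights, 0 with the block, 1 without both wounds, and 1 to 4 with single wounds left out. Over all genes the 188 higher and 231 lower became 406 and 416 with library weights, 11 and 5 with the block, 106 and 81 without both wounds, 106 and 75 without non-diabetic wound 1, 126 and 122 without non-diabetic wound 2, 104 and 95 without non-diabetic wound 3 and 119 and 107 without non-diabetic wound 4. The cause of these shifts was not tested. In the block fit, diabetic wounds 5 to 7 have no non-diabetic wound of the same number and add nothing to the difference. Same-numbered wounds do not pair (correlations of deviations -0.267, 0.215, 0.0678 and -0.483, and no non-diabetic wound was closest to the diabetic wound of its number). With the replicate block, CTH stood at -0.81 (limma adjusted p = 0.297) and AHCY at 0.70 (limma adjusted p = 0.213). With library weights MAT1A was called (0.60, limma adjusted p = 0.0478), and stricter filters on low values left it untested. Uncalled genes that changed sign were AHCYL2 (0.14 with the replicate block, and -0.24 without non-diabetic wound 1 to 0.043 without non-diabetic wound 3), SAT1 (-0.065 to 0.036 with single wounds left out), AMPD2 (-0.13 to 0.0016), ETHE1 (-0.014 without non-diabetic wound 1 to 0.25), ANPEP (-0.084 with the replicate block) and RRM1 (-0.034 with library weights).

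With 1 animal in a group no setting separates diabetes from the animal. Depth limits MAT1A most, with 36 to 227 reads per wound.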
